A study of Homo sapiens with 6 samples.

Results

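The genes described here encode the machinery that ends a transcript of RNA polymerase II: the factors that cleave and polyadenylate pre-mRNA, the proteins that bring the polymerase to termination, and the Integrator complex. The group was set by a list of 34 gene symbols by their role, with no measured value in the rule, and all 34 were found among the 57905 genes of the count table. The data are 6 RNA-SEQ libraries of NALM6 cells, 3 after DMSO and 3 after THZ1 at 500 nM, each over 24 h. NALM6 is a human line of B cell precursor leukemia, and all libraries are of this 1 line, so the groups differ in the treatment alone as far as the labels say. THZ1 is a covalent inhibitor of CDK7, a kinase that phosphorylates the C-terminal domain (CTD) of RNA polymerase II, and DMSO is the solvent control. The question addressed is how the level of each gene differed between THZ1- and DMSO-treated cells.

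As background, the end of most mRNAs is made in a series of steps on the CTD of the transcribing polymerase. CPSF (cleavage and polyadenylation specificity factor) reads the hexamer AATAAA, written here as DNA, and its subunit CPSF3 cuts the RNA, while CstF (cleavage stimulation factor) binds downstream of the cut and CFIm and CFIIm (cleavage factors I and II) assist the choice and the cleavage of the site. Poly(A) polymerase then adds the tail, and the exonuclease XRN2 degrades the RNA that is still attached to the polymerase. Integrator has its own nuclease module, related in sequence to the CPSF nuclease, and it cleaves small nuclear RNAs and the short transcripts of polymerases that pause near promoters.

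The libraries held 11015480 to 11164840 counts on genes in the DMSO-treated and 7876402 to 8314306 in the THZ1-treated cells. Levels are given as CPM, counts relative to the library size after TMM scaling. The value of 3 counts was no more than 0.253 CPM in a DMSO and 0.415 CPM in a THZ1 library, a floor that covers counting error only, and every member lay above it in every library. Mitochondrial genes took 4.32% to 4.37% of the counts with DMSO and 12.6% to 13.6% with THZ1, and the part of this difference in the results was not tested. The B cell precursor markers were above the floor in every library for 12 of 12 genes, with a summed level of 4133 to 4269 CPM with DMSO and 2192 to 2257 CPM with THZ1. Of the T cell markers 1 of 5 passed the floor in any library, of the erythroid 0 of 3 and of the epithelial 0 of 4, whereas the 5 myeloid markers summed to 3.88 to 4.63 CPM with DMSO and 18.5 to 20.1 CPM with THZ1. No label says that the libraries of a treatment came from separate cultures, so p-values measure only the spread between these libraries, which differed within a treatment by more than sampling noise (chi-square per gene of 1.79 to 9.53).

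The sequence that this machinery reads lies near the end of its own transcripts. The last 30 bases of the canonical transcript of selected members are printed below, 5′ to 3′ on the strand of the gene and read from GRCh37, with the AATAAA hexamer in capitals, since these include 6 of the 8 members past 1.5 on the log2 scale in either direction, with CPSF3, the nuclease, and NUDT21, whose product binds upstream of the cut. The end of the transcript is the annotated one, and which end was used in these cells was not measured.
NUDT21, chr16:56463045-56463074, minus strand: tcatttcAATAAAaaatatttgaaagagaa
PCF11, chr11:82896807-82896836, plus strand: atacatgtAATAAAtagaatgatgaagaaa
CLP1, chr11:57429308-57429337, plus strand: cattttAATAAAtatttttgccatatcata
INTS6, chr13:51935713-51935742, minus strand: tccatggAATAAAttccttattgaaggtaa
CPSF2, chr14:92638460-92638489, plus strand: caattgtgaAATAAAcagattctgaaggtc
CPSF3, chr2:9613201-9613230, plus strand: aaAATAAAatgcattcgtttctctggggga
CSTF3, chr11:33106130-33106159, minus strand: tcctttaaaaAATAAAaggattcagaaaca
INTS7, chr1:212113745-212113774, minus strand: cctttttaAATAAAtatctgtttctttgct
In 34 members, the window of 30 bases held AATAAA in 24 (70.6%), ATTAAA without AATAAA in 2 (5.88%) and neither in 8 (23.5%). Among 11873 protein-coding genes tested, 59.0% held AATAAA, 14.2% ATTAAA alone and 26.7% neither. Members that rose and members that fell are both among those with AATAAA printed above. The hexamer was searched on the transcribed strand only, and a match describes letters, not use of the site.

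Across the list, 31 of 34 members differed between the treatments, 13 of them higher and 18 lower with THZ1, and 3 (CPSF6, PAPOLA and INTS12) did not pass the test. The split depended on the scaling, with 14 higher and 14 lower under upper quartile factors and 11 higher and 21 lower under library sizes alone. The test was edgeR's quasi-likelihood test, with a call at a Benjamini-Hochberg adjusted p below 0.05 over the 16622 genes tested. In that fit 84.5% of all genes tested were called, 43.5% higher and 41.1% lower, so the share of members called (91.2%) is to be read against a background in which most genes were. Past 1.5 on the log2 scale, 4 members were higher and 4 lower, while the background was 24.6% higher and 12.9% lower. For 31 members the libraries of the treatments did not overlap, against 84.7% of all genes tested. Which members pass 1.5 moved with the processing for CPSF2, RBBP6, INTS6, CPSF3 and INTS8. The median log2 fold change, THZ1 minus DMSO, was −0.25 over the members and 0.03 over all genes tested. All these values are relative to the TMM scaling, so a rise or a fall is against the other genes of a library and not per cell. In bulk libraries, fewer cells of a type and less RNA per cell cannot be told apart.

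**Figure D1:**
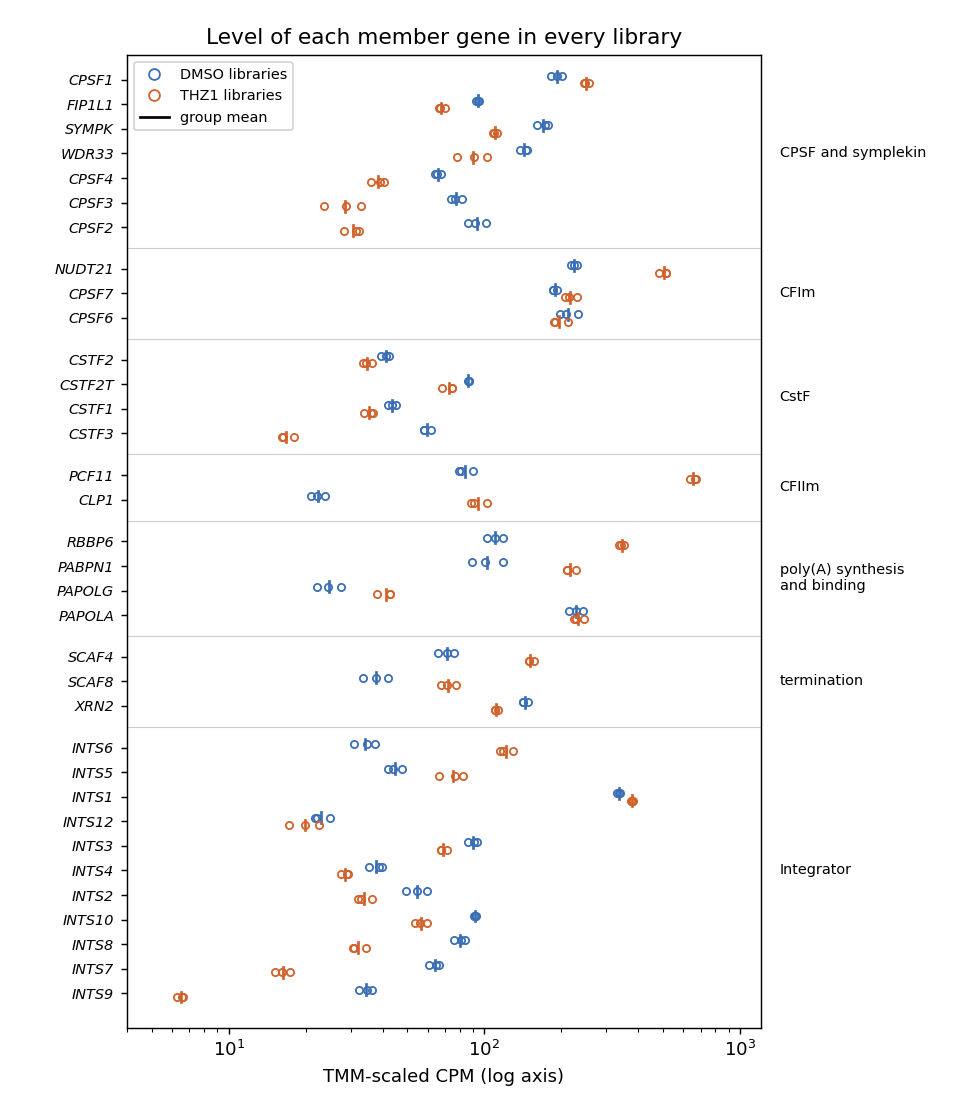
Level of each of the 34 members in every library, as TMM-scaled CPM on a log axis, with DMSO-treated libraries in blue, THZ1-treated in orange and a tick at each group mean. PCF11 moves from 79.9 to 90.2 CPM with DMSO to 634 to 669.9 CPM with THZ1, INTS9 falls to between 6.31 and 6.64 CPM, and the points of CPSF6, PAPOLA and INTS12 overlap.

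The CPSF subunits with symplekin fell for the most part, with 6 of 7 lower, 1 higher and a median log2 fold change of −0.66. Over all genes tested, 41.1% were lower and 43.5% higher. The lowest was CPSF2, the partner of the nuclease, on chromosome 14 from 92588313 to 92638489. CPSF2 had 92.2, 101 and 86.1 CPM in the DMSO-treated libraries and 31.4, 28.4 and 32.4 CPM in the THZ1-treated libraries. Every THZ1 library lay far below every DMSO library, and the log2 fold change was −1.60 ± 0.09 (standard error, n = 3 libraries each), a 3.03-fold lower level. CPSF3, which encodes the nuclease that cuts the pre-mRNA and lies on chromosome 2 from 9563780 to 9613230, had 76.7, 74.3 and 81.5 CPM with DMSO and 28.8, 23.5 and 32.9 CPM with THZ1. Again the groups were apart, and the log2 fold change was −1.45 ± 0.10, just inside 1.5. The adjusted p-values by edgeR's quasi-likelihood test were 1.3e-16 for CPSF2 and 1.4e-14 for CPSF3.

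The largest subunit went the other way. CPSF1, a scaffold of the complex, had 202, 181 and 192 CPM with DMSO and 248, 257 and 246 CPM with THZ1. All THZ1 libraries were above all DMSO libraries, by a log2 fold change of 0.39 ± 0.07 (edgeR adjusted p = 4.6e-06). CPSF4 and WDR33, which contact the AATAAA hexamer, had log2 fold changes of −0.77 ± 0.09 and −0.66 ± 0.08. FIP1L1, which ties CPSF to the poly(A) polymerase, stood at −0.48 ± 0.08, and SYMPK, the scaffold symplekin, at −0.64 ± 0.07. These 4 were lower in every THZ1 library than in any DMSO library, and their mean levels with THZ1 were 38.5 CPM (CPSF4), 90.4 CPM (WDR33), 67.8 CPM (FIP1L1) and 109.6 CPM (SYMPK). WDR33 varied most among the 4 with THZ1, from 77.8 to 102 CPM.

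The 3 subunits of CFIm, which binds UGUA upstream of the cleavage site, did not move together. NUDT21, which recognises that RNA element and lies on chromosome 16 from 56463045 to 56486111, had 224, 231 and 218 CPM with DMSO and 513, 511 and 482 CPM with THZ1. It thus rose 2.24-fold, with a log2 fold change of 1.16 ± 0.07 (edgeR adjusted p = 1.2e-16) and groups well apart. CPSF6, a larger subunit that carries an RS-like domain, had 208, 232 and 198 CPM with DMSO and 212, 186 and 188 CPM with THZ1. These values overlapped, and the log2 fold change of −0.12 had a 95% interval from −0.27 to 0.03 (edgeR adjusted p = 0.12). CPSF7, the alternative to CPSF6, had 186, 193 and 186 CPM with DMSO and 230.1, 207 and 214 CPM with THZ1. Its groups did not overlap and it was called higher, at 0.20 ± 0.07 (edgeR adjusted p = 0.0067). With library sizes alone as the scaling, the value of CPSF7 was −0.044 and not called (also not with no filter, 0.12, or with limma on log2(FPKM + 1), 0.040), and that of CPSF6 was −0.37 and called lower. CPSF6 was called lower with no filter (−0.21) and in the limma fits on FPKM (−0.26) as well. The call of CPSF7 was lost without DMSO library 1 (0.18) or THZ1 library 1 (0.15), and CPSF6 was called lower without DMSO library 3 (−0.19) or THZ1 library 1 (−0.19).

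All 4 CstF genes were called lower, beside 41.1% of all genes tested, but by unequal amounts. CSTF3, the scaffold of the complex, lies on chromosome 11 from 33098734 to 33183917 and had 58.2, 58.2 and 62.03 CPM with DMSO against 18.0, 16.3 and 16.2 CPM with THZ1. The groups were far apart, with a log2 fold change of −1.82 ± 0.10 and a 3.53-fold lower level (edgeR adjusted p = 7.0e-17). The other 3 fell by less than 0.3 on the log2 scale. CSTF1, a WD-repeat subunit, had 41.8, 45.1 and 43.5 CPM with DMSO and 36.8, 36.1 and 33.7 CPM with THZ1 (log2 fold change −0.29 ± 0.09). CSTF2, the subunit that binds the GU-rich element downstream of the cut, had 39.4, 41.3 and 42.5 CPM with DMSO and 33.7, 34.5 and 36.2 CPM with THZ1 (log2 fold change −0.24 ± 0.09). CSTF2T, its intronless paralog, had 86.8, 86.0 and 86.9 CPM with DMSO and 74.6, 74.8 and 68.2 CPM with THZ1 (log2 fold change −0.26 ± 0.08). In each the groups did not overlap, and the adjusted p-values from edgeR were 0.0050, 0.019 and 0.0032. With upper quartile factors their values were −0.098, −0.047 and −0.063 and none of the 3 was called, and CSTF2 was also not called without THZ1 library 1 (−0.22). With at least 10 counts in every library the values were −0.16, −0.11 and −0.12, again with none of the 3 called. CSTF2 also lost its call with RLE factors (−0.17) and DESeq2 (−0.17), and CSTF1 with DESeq2 (−0.22). CSTF3 was called lower under each of the 13 alternatives on the count table.

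CFIIm gave the largest rises of the list. PCF11 binds the CTD and is needed for termination, and it lies on chromosome 11 from 82868030 to 82898493. Its level was 79.9, 90.2 and 80.8 CPM in the DMSO-treated libraries and 669.9, 664 and 634 CPM in the THZ1-treated libraries. The lowest THZ1 library was thus several times the highest DMSO library, with a 7.84-fold rise and a log2 fold change of 2.97 ± 0.07 (edgeR adjusted p = 6.5e-26). CLP1, its partner and an RNA kinase, lies on the same chromosome from 57415661 to 57429337, and had 21.1, 22.1 and 23.9 CPM with DMSO and 103, 89.0 and 90.8 CPM with THZ1. It rose 4.21-fold, with a log2 fold change of 2.07 ± 0.09 (edgeR adjusted p = 1.9e-19), and no library of a treatment came near those of the other. For PCF11 the value ranged from 2.72 to 3.16, and for CLP1 from 1.83 to 2.27, over the 16 alternatives of scaling, filter, test, table and libraries.

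In the group listed under poly(A) synthesis and binding, 3 of 4 genes rose, beside 43.5% of all genes tested. The largest rise was that of RBBP6, a ubiquitin ligase counted in this group though it is a subunit of the cleavage complex. RBBP6 lies on chromosome 16 from 24549014 to 24584184. Its level was 110.1, 118 and 103 CPM with DMSO and 351, 337 and 343 CPM with THZ1, which is a 3.12-fold rise with groups far apart and a log2 fold change of 1.64 ± 0.07 (edgeR adjusted p = 8.6e-20). PABPN1, the nuclear poly(A) binding protein, rose from a mean of 102 ± 14.3 CPM to 217 ± 10.1 CPM (SD, n = 3), with a log2 fold change of 1.08 ± 0.08. The main poly(A) polymerase did not pass the test. PAPOLA had 229, 243 and 214 CPM with DMSO and 246, 224 and 228 CPM with THZ1, so that the groups overlapped, with a log2 fold change of 0.03 and a 95% interval from −0.12 to 0.17 (edgeR adjusted p = 0.74). Its sign depended on the scaling, being −0.22 and called lower with library sizes alone and 0.22 and called higher with upper quartile factors, and it was −0.039 without DMSO library 3 and −0.023 without THZ1 library 1, not called in either. PAPOLG, a second nuclear poly(A) polymerase, had 24.5, 27.6 and 22.2 CPM with DMSO and 42.6, 38.1 and 42.9 CPM with THZ1. This was a rise of 0.73 ± 0.10 on the log2 scale, with no overlap (edgeR adjusted p = 1.4e-07), and it was called higher with smaller values of 0.48 under library sizes alone and 0.39 with limma on log2(FPKM + 1).

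In the termination group, the CTD-binding proteins rose and the exonuclease fell. SCAF4 and SCAF8 are related proteins that bind the phosphorylated CTD and hold back the use of early poly(A) sites. SCAF4 had 76.4, 71.5 and 65.9 CPM with DMSO and 156, 149 and 149 CPM with THZ1, and SCAF8 had 37.5, 41.9 and 33.6 CPM with DMSO and 67.5, 71.4 and 77.1 CPM with THZ1. Both were higher in all THZ1 libraries, with log2 fold changes of 1.09 ± 0.08 and 0.93 ± 0.09. XRN2, the 5′ to 3′ exonuclease, had 142, 148 and 141 CPM with DMSO and 109.7, 109.8 and 114 CPM with THZ1. It was lower in each of the 3 THZ1 libraries, by −0.37 ± 0.07. The adjusted p-values by edgeR were 1.9e-14 for SCAF4, 7.5e-11 for SCAF8 and 1.5e-05 for XRN2.

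**Figure D2:**
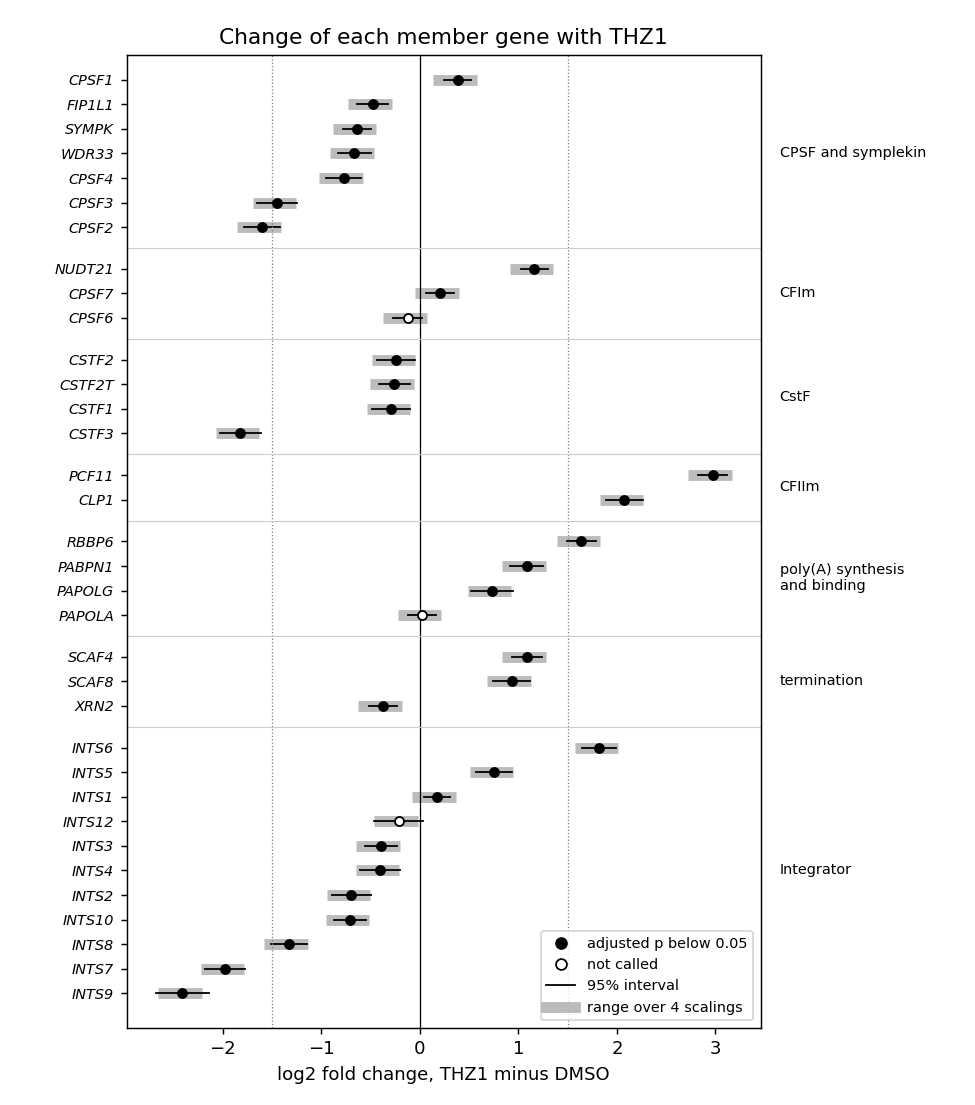
Log2 fold change of each member, THZ1 minus DMSO, by role, with the 95% interval as a line, filled points for an adjusted p below 0.05 and a grey bar for the range over 4 scalings (TMM, RLE, upper quartile factors, library sizes alone). Dotted lines mark 1.5 in either direction, passed upward by PCF11, CLP1, RBBP6 and INTS6 and downward by CPSF2, CSTF3, INTS7 and INTS9, and the grey bars of CPSF6, CPSF7, PAPOLA and INTS1 cross 0.

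Integrator was the largest group, with 11 listed subunits, of which 7 fell, 3 rose and 1 did not pass the test. Its lower and higher shares were 63.6% and 27.3%, beside 41.1% and 43.5% of all genes tested. The median log2 fold change was −0.40. The members outside Integrator had 10 higher and 11 lower of 23, with a median of −0.12, and the difference between these groups was not tested. INTS9, which pairs with the Integrator nuclease INTS11, had the lowest fold change of all members. It lies on chromosome 8 from 28625178 to 28747759. INTS9 had 34.9, 32.3 and 36.4 CPM with DMSO and 6.31, 6.64 and 6.55 CPM with THZ1. The THZ1 libraries lay close together and far below, at 48 counts or more each, with a 5.30-fold lower level and a log2 fold change of −2.41 ± 0.13 (edgeR adjusted p = 6.7e-17). INTS7, a subunit of the structural core, lies on chromosome 1 from 212113741 to 212208899, and had 66.4, 64.9 and 60.8 CPM with DMSO and 15.3, 17.4 and 16.2 CPM with THZ1. It fell by 1.97 ± 0.10 on the log2 scale with groups far apart (edgeR adjusted p = 9.5e-18), and INTS8, which takes part in binding the phosphatase PP2A to Integrator, stood at −1.33 ± 0.09.

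INTS6 ran against these. It links Integrator to PP2A and lies on chromosome 13 from 51928213 to 52028400. Its level was 37.2, 34.8 and 30.8 CPM with DMSO and 115, 119 and 129 CPM with THZ1. The groups did not overlap, and the rise was 3.53-fold, or 1.82 ± 0.09 on the log2 scale (edgeR adjusted p = 1.1e-18). In the deposited log2 FPKM table the log2 fold change of INTS6 was smaller, at 1.14, and there it was called higher by limma as well. INTS5 also rose, from 44.6 ± 2.97 CPM to 75.3 ± 8.34 CPM (SD, n = 3), with a log2 fold change of 0.76 ± 0.09.

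The remaining Integrator subunits had log2 fold changes under 1 in size. INTS1, the largest subunit, had 339, 331 and 335 CPM with DMSO and 377, 382 and 374 CPM with THZ1. The groups did not overlap and the call was higher at 0.17 ± 0.06 (edgeR adjusted p = 0.015), but with library sizes alone the value was −0.076 and not called, with no filter it was 0.085 and with limma on log2(FPKM + 1) 0.023, both not called, and the call was also lost without DMSO library 1 (0.16), THZ1 library 2 (0.15) or THZ1 library 3 (0.17). INTS4, which with INTS9 and INTS11 forms the cleavage module, had 39.7, 35.2 and 38.6 CPM with DMSO and 29.1, 27.5 and 29.3 CPM with THZ1. It fell by 0.40 ± 0.10 without overlap (edgeR adjusted p = 0.00046), and with upper quartile factors the value was −0.21 at an adjusted p of 0.053 from edgeR. INTS2, INTS3 and INTS10 fell by 0.69, 0.39 and 0.71, each without overlap. INTS12, a subunit with a PHD finger, had 22.2, 24.9 and 21.9 CPM with DMSO and 19.9, 22.6 and 17.2 CPM with THZ1. Its groups overlapped, and the log2 fold change of −0.21 had a 95% interval from −0.46 to 0.04 (edgeR adjusted p = 0.11), with −0.46 and a lower call under library sizes alone, and a lower call without DMSO library 3 (−0.27) or THZ1 library 2 (−0.32). These are among 7 of 16 alternatives in which INTS12 was called lower.

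Levels between genes can be compared only per length, for which the deposited FPKM values were used, taken back from log2(FPKM + 1). CPSF3 and CSTF3 have no entry in that table, so 32 members are compared. With DMSO, the highest mean levels were those of XRN2 (120.1 FPKM), NUDT21 (108 FPKM) and INTS1 (104 FPKM). The lowest were those of INTS6 (4.67 FPKM) and PAPOLG (8.84 FPKM). The order depends on the gene length used, which is not stated for the deposited values. For INTS6, all annotated exons cover 25509 bases and the canonical transcript 7350, so its low place may come from the length. With THZ1, NUDT21 (202 FPKM) and PCF11 (162 FPKM) were at the top, and INTS9 (2.30 FPKM) and CPSF2 (4.53 FPKM) at the bottom. The subunits of CFIIm changed place in this order, since PCF11 had 23.7 ± 1.55 FPKM and CLP1 28.4 ± 1.75 FPKM with DMSO (SD, n = 3), and 162 ± 4.07 and 109 ± 7.75 FPKM with THZ1. Within Integrator the spread of levels was wide with both treatments, from 4.67 FPKM (INTS6) to 104 FPKM (INTS1) with DMSO and from 2.30 FPKM (INTS9) to 106 FPKM (INTS1) with THZ1. The log2 scale with a pseudocount of 1 understates the change of the lowest genes.

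Several members have a related gene with the same or a parallel role, so the log2 ratio of the counts of 7 pairs was formed within each library, which does not depend on the scaling between libraries. INTS6 over its paralog INTS6L had log2 ratios of 0.57, 0.17 and 0.30 with DMSO and 3.17, 2.996 and 3.15 with THZ1. The counts of the pair were thus mostly those of INTS6 in the THZ1 libraries, a change of 2.76. Counts do not allow for length. In the deposited FPKM values the mean was 4.67 for INTS6 and 11.1 for INTS6L with DMSO, and 11.5 and 3.70 with THZ1. The size of this gap depends on the length used. All annotated exons cover 25509 bases for INTS6 and 7177 for INTS6L, and the canonical transcripts 7350 and 3904. INTS6L itself had 24.97, 30.8 and 25.1 CPM with DMSO and 12.8, 14.8 and 14.4 CPM with THZ1, and fell by 0.95 ± 0.13 on the log2 scale without overlap (edgeR adjusted p = 4.8e-08). The nucleases parted as well: CPSF3 over INTS11, the nuclease of Integrator, had −0.87, −0.87 and −0.91 with DMSO and −2.84, −3.05 and −2.63 with THZ1, a change of −1.96. Their partners moved the other way relative to each other, with CPSF2 over INTS9 at 1.40, 1.65 and 1.24 with DMSO and 2.30, 2.08 and 2.29 with THZ1, a change of 0.80. Both CPSF2 and INTS9 were called lower, as given above.

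PAPOLA over PAPOLG had log2 ratios of 3.22, 3.13 and 3.27 with DMSO and 2.53, 2.55 and 2.41 with THZ1, so PAPOLA remained the more counted gene in every library. CPSF6 over CPSF7 had 0.17, 0.26 and 0.09 with DMSO and −0.12, −0.15 and −0.19 with THZ1. The sign of such a ratio does not allow for transcript length. Per length, CPSF6 had the lower mean with both treatments, at 74.8 against 88.9 FPKM with DMSO and 62.2 against 91.5 FPKM with THZ1. The change was −0.71 for the poly(A) polymerases and −0.32 for the CFIm subunits. For these 5 pairs the groups did not overlap, with p = 0.1 by a two-sided exact permutation test, the smallest p that 3 libraries against 3 allow, and 0.14 after adjustment over 7 pairs, so none could pass 0.05. The ratio of CSTF2 over CSTF2T was −1.14, −1.06 and −1.03 with DMSO and −1.15, −1.12 and −0.91 with THZ1, with overlapping groups (change 0.02, exact permutation p = 0.9). SCAF4 over SCAF8 overlapped too, at 1.02, 0.77 and 0.97 with DMSO and 1.21, 1.06 and 0.95 with THZ1 (change 0.15, exact permutation p = 0.3). In the FPKM table, which has no entry for CPSF3, the changes of the other 6 pairs were 2.50 (INTS6 over INTS6L), 0.77 (CPSF2 over INTS9), −0.45 (PAPOLA over PAPOLG), −0.30 (CPSF6 over CPSF7), 0.03 (CSTF2 over CSTF2T) and 0.16 (SCAF4 over SCAF8).

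**Figure D3:**
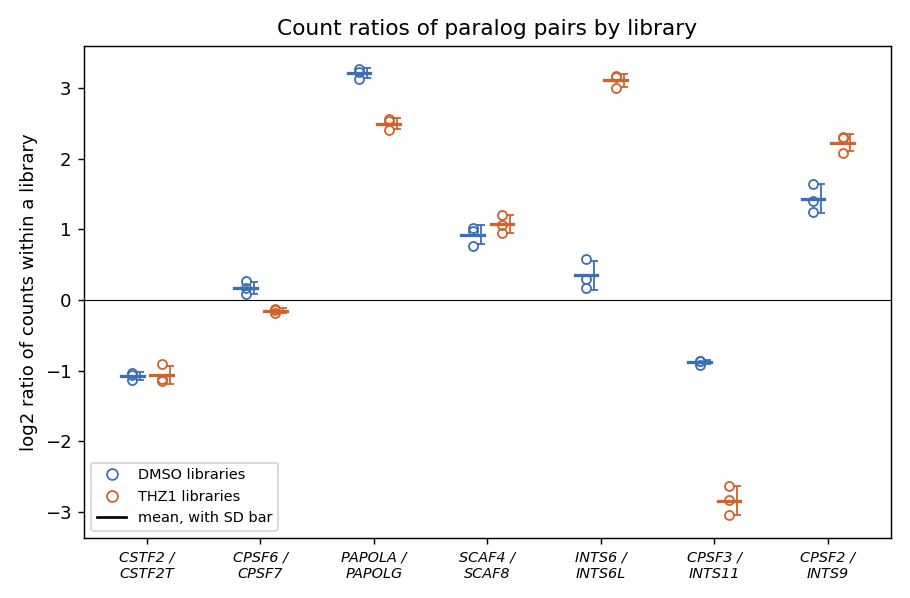
Log2 ratio of the counts of both genes of a pair within each library, for 7 pairs, with DMSO-treated libraries in blue, THZ1-treated in orange, and a thick line for the mean with its SD bar. INTS6 over INTS6L is 0.17 to 0.57 with DMSO and 2.996 to 3.17 with THZ1, CPSF3 over INTS11 is −0.91 to −0.87 and −3.05 to −2.63, and the points of CSTF2 over CSTF2T and of SCAF4 over SCAF8 overlap.

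Where the genes lie and how long they are was not part of the list's rule. The 13 members that rose had a median span of 30.5 kb, from 4.71 to 101 kb, and the 18 that fell a median of 56.4 kb, from 4.11 to 123 kb. Across the 34 members, the log2 fold change and the log10 gene span had a Pearson's r of −0.35 and a Spearman's rho of −0.39, which are given as a description. Across 11929 protein-coding genes tested the values were −0.33 and −0.34, which are near those of the members. All these points come from the same 6 libraries, and genes are not independent replicates. INTS6, with 100.2 kb, and SCAF8, with 101 kb, were long and rose, whereas CSTF2T, with 4.11 kb, had the shortest gene span and was called lower. By the span of the canonical transcript the shortest was CLP1, which rose, with 4.104 kb against 4.11 kb for CSTF2T. With that span, Pearson's r and Spearman's rho were −0.40 and −0.44 across the members. Across 11873 protein-coding genes they were −0.34 and −0.35. With the GC content of the canonical transcript, the members had a Pearson's r of 0.05 and a Spearman's rho of 0.08, against 0.35 and 0.34 for protein-coding genes.

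**Figure D4:**
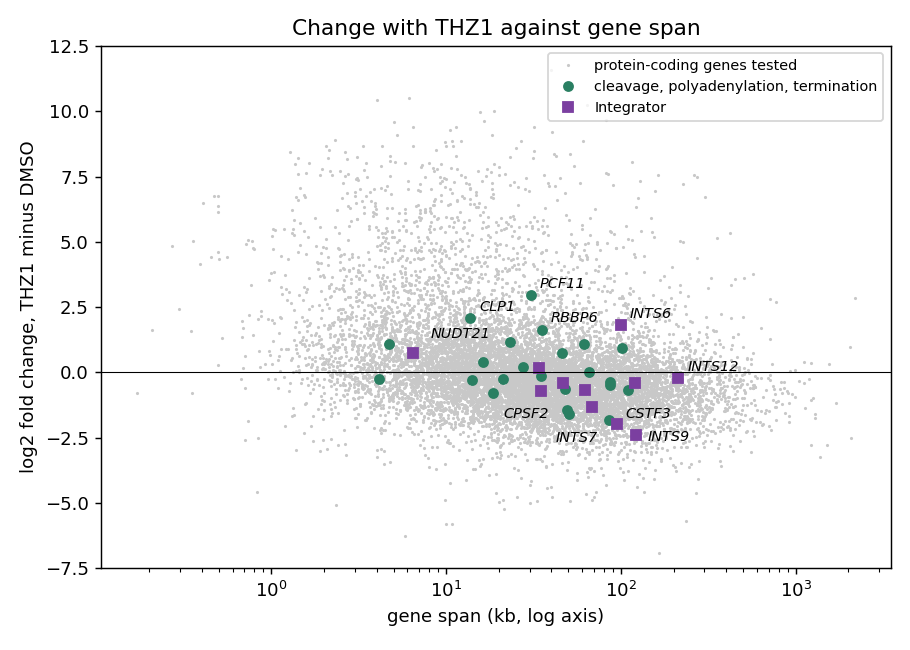
Log2 fold change of each gene, THZ1 minus DMSO, against its gene span in kb on a log axis, with protein-coding genes tested as grey dots, Integrator subunits as purple squares and the other members as green circles. The 4 members past 1.5 downward span 50.2 to 123 kb and the 4 past 1.5 upward 13.7 to 100.2 kb.

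The counting is not stated to use strand, so reads of genes that overlap on opposite strands may be shared. Of the 34 members, 16 share exon bases with a gene on the opposite strand in the count table and 7 with a gene on the same strand, 19 with either. PCF11 shares 1516 bases with PCF11-AS1, which stood at 5.32 and 7.57 CPM with DMSO and THZ1, and 175 bases with ANKRD42-DT (14.7 and 40.3 CPM), against 83.6 and 656 CPM for PCF11. INTS6 shares 243 bases with INTS6-AS1, which rose from 2.49 to 20.4 CPM with a log2 fold change of 3.02, against the 34.3 and 121 CPM of INTS6. PAPOLA shares 157 bases with PAPOLA-DT, which rose from 1.88 to 14.0 CPM. CSTF3 shares 392 bases with TCP11L1, which fell like it, by 1.56 on the log2 scale, from 20.2 to 6.87 CPM. INTS8 shares 1629 bases with the cyclin gene CCNE2, which fell by 1.98, from 50.5 to 12.8 CPM, and WDR33 shares 3746 bases with SFT2D3, which rose by 1.74, from 16.0 to 53.4 CPM. FIP1L1 shares 1900 bases with LNX1, which fell by 1.02, and PABPN1 shares 1447 bases with the readthrough gene BCL2L2-PABPN1 on the same strand, at 0.165 and 1.49 CPM. Values of these members are uncertain to the extent that such reads were counted for either gene or for neither, and the level of the other gene does not bound this.

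Promoters are shown for PCF11 and CLP1, which rose together, and for CSTF3 and INTS7, which fell. The 100 bases upstream of the start are printed 5′ to 3′ on the strand of the gene, from RefSeq on GRCh38.p14, a newer build than that of the other coordinates. Capitals mark the GC box, spelled GGGCGG. They also mark the CCAAT box, by its own letters, and the E-box, which is the palindrome CACGTG. The TATA box, searched as TATAAA, is in none of the promoters printed. All 4 motifs were searched on both strands, and they do not overlap each other in the sequences shown.
PCF11, chr11:83157031-83157130, plus strand: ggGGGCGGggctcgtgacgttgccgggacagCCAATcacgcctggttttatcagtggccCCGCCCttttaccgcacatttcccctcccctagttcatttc
CLP1, chr11:57657662-57657761, plus strand: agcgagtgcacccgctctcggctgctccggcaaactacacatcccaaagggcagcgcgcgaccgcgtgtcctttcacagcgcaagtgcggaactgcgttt
CSTF3, chr11:33161481-33161580, minus strand: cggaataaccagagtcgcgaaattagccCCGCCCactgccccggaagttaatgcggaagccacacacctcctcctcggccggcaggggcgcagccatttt
INTS7, chr1:212035558-212035657, minus strand: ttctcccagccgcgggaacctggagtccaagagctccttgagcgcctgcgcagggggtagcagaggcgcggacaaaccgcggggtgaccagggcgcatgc
In these 100 bases PCF11 holds GC boxes and a CCAAT, CSTF3 a GC box, and CLP1 and INTS7 none of the 4 motifs. Within the 300 bases searched, however, CLP1 holds a GC box, INTS7 a CCAAT box, and CSTF3 both. Over the whole promoter of 300 bases, 28 of 34 members had an entry, and 20 of them held a GC box (71.4%), 13 a CCAAT box (46.4%), 3 an E-box (10.7%) and 0 a TATA box. The shares over all 27305 promoters of the same length were 44.6%, 35.7%, 7.43% and 12.0%. That set was not limited to protein-coding genes or to genes tested, as the members are, so the shares are not like for like. GC boxes occurred in promoters of members that rose, such as PCF11, RBBP6 and INTS6, and of members that fell, such as CSTF3. A match is a description of the letters alone.

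Other genes of the pathway, outside the 34, were taken from a list of 45, of which 44 were tested and PAPOLB had 0 counts. Of these, 17 were higher, 23 lower and 4 (PPP1CA, PABPC1, PABPC4 and ESS2) not called. The share called was 90.9%, against 84.5% of all genes tested, with 38.6% higher and 52.3% lower against 43.5% and 41.1%. The median of their log2 fold changes was −0.32. Of the 44, 3 passed 1.5 upward and 7 downward, beside 24.6% and 12.9% of all genes tested. Among 10 further Integrator subunits and partners, 4 were higher and 6 lower. INTS11, the nuclease, had 139.9, 136 and 154 CPM with DMSO and 206, 195 and 204 CPM with THZ1, a rise of 0.50 ± 0.07 on the log2 scale. INTS13 and INTS14, which form a module of their own with INTS10 and INTS15, both fell. INTS13 had 71.5, 65.7 and 71.0 CPM with DMSO and 15.3, 15.1 and 14.7 CPM with THZ1 (log2 fold change −2.21 ± 0.10), the lowest of this sublist. INTS14 had 55.6, 56.8 and 65.7 CPM with DMSO and 17.1, 14.5 and 14.97 CPM with THZ1 (log2 fold change −1.93 ± 0.11). In the cleavage module, then, INTS11 rose while INTS4 and INTS9 fell, and in the INTS10 module INTS10, INTS13 and INTS14 fell while INTS15 rose. INTS15, named after its values were seen, had 55.6, 48.2 and 63.8 CPM with DMSO and 113, 110.0 and 107 CPM with THZ1, with no overlap (0.98 ± 0.09). The highest of the sublist was NABP1, a single-stranded DNA binding protein, with 15.1, 14.6 and 16.3 CPM with DMSO and 32.3, 38.5 and 32.9 CPM with THZ1 (1.17 ± 0.11).

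Of 16 termination and CTD factors, 6 were higher, 9 lower and 1 not called, beside 43.5% higher and 41.1% lower over all genes tested. DXO, a decapping exonuclease, was the highest, with 24.6, 20.3 and 25.4 CPM with DMSO and 83.5, 73.4 and 82.4 CPM with THZ1, at 1.77 ± 0.10. TTF2, which releases RNA polymerase II from DNA, was the lowest, with 121, 139 and 123 CPM with DMSO and 24.3, 27.0 and 26.9 CPM with THZ1, at −2.29 ± 0.09. The groups of both genes were far apart. Of the 3 U1 snRNP proteins, SNRNP70 rose by 1.23 ± 0.07, from 402, 363 and 442 CPM to 932, 922 and 970.2 CPM, and SNRPC had the lowest value (−0.65 ± 0.09), from 119, 112 and 147 CPM to 79.4, 80.4 and 81.3 CPM. U1 snRNP is known for holding back cleavage at early poly(A) sites.

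Of 15 RNA surveillance, cap and poly(A) proteins tested, 6 were higher, 6 lower and 3 not called. These counts stand near the 43.5% higher and 41.1% lower over all genes tested. SRRT, which encodes ARS2, the link between the cap-binding complex and RNA decay or 3′ end formation, had 321, 296 and 358 CPM with DMSO and 3074, 3065 and 3044 CPM with THZ1. This 9.41-fold rise (log2 fold change 3.23 ± 0.08, edgeR adjusted p = 3.2e-26) exceeded that of PCF11. MTREX, the helicase that feeds RNA to the nuclear exosome, was the lowest of this sublist, with 109, 125 and 104 CPM with DMSO and 28.9, 36.3 and 38.0 CPM with THZ1, at −1.71 ± 0.10. The cap-binding proteins moved in opposite directions, NCBP1 by −1.67 ± 0.09 and NCBP2 by 0.88 ± 0.07, and were named after their values were seen. All these genes named as rising or falling had an adjusted p below 0.05 by edgeR and no overlap between the treatments. Such a lack of overlap held for 84.7% of all genes tested.

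**Figure D5:**
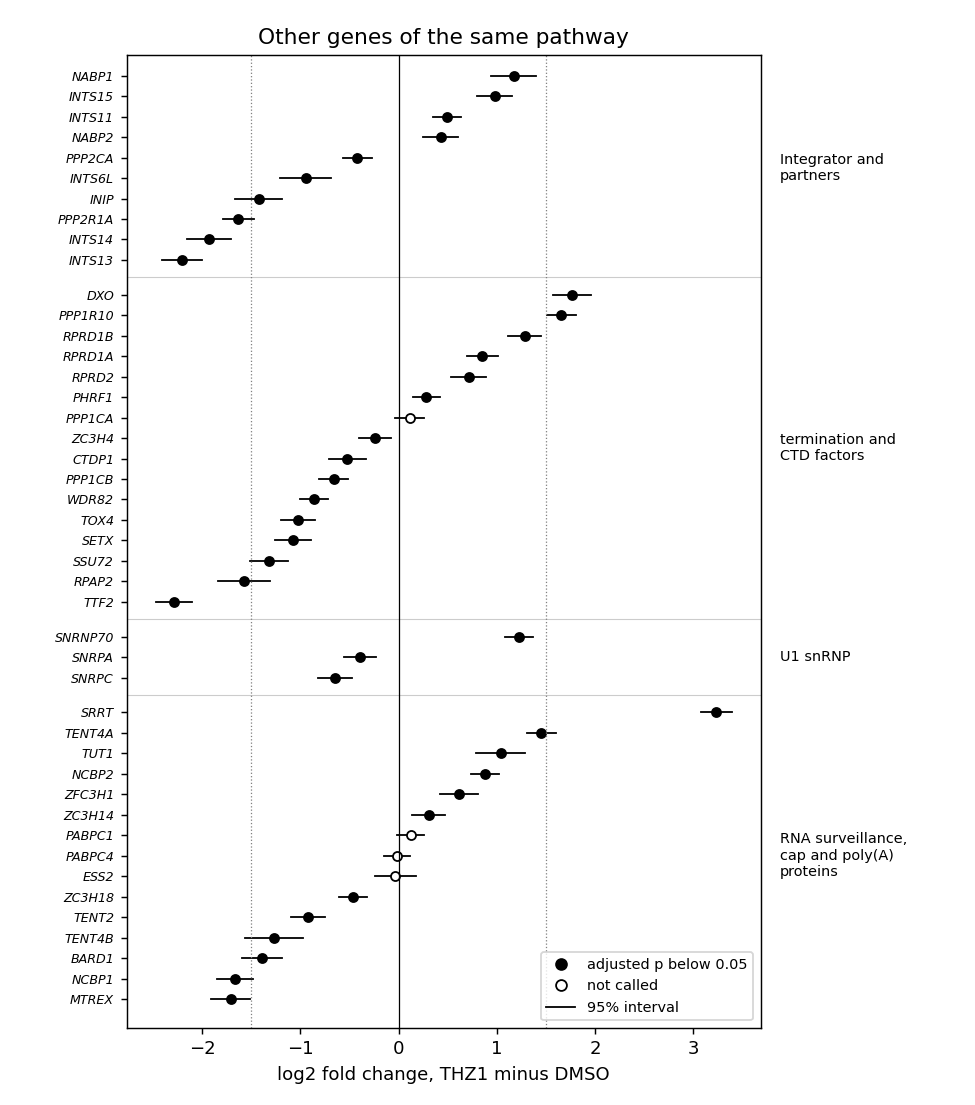
Log2 fold change of 44 other genes of the pathway, THZ1 minus DMSO, in 4 sublists, with the 95% interval as a line and filled points for an adjusted p below 0.05. SRRT (3.23) is the highest and TTF2 (−2.29) the lowest, dotted lines mark 1.5 in either direction, and the open points are PPP1CA, PABPC1, PABPC4 and ESS2.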

How the data were processed

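NALM6 cells received DMSO or THZ1, and 3 RNA-SEQ libraries for each treatment were made from TRIzol-isolated RNA. The raw counts were deposited by the authors, who trimmed the reads, aligned them with STAR (GRCh37) and assigned them to genes with htseq-count. The gene annotation and strand setting are not given in the sources used here. Another deposited table holds RSEM FPKM values on a log2 scale for 16730 genes, read as log2(FPKM + 1), whose sorted values are nearly the same between libraries of a treatment. The authors' own p-values, FDR and log2 fold changes in it were not used. Treatments were taken from the labels.

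Low genes were removed with edgeR's filterByExpr (minimum count 10, minimum total 15), and 16622 genes were fitted with TMM factors, under the assumption that most genes are stable. In this fit 84.5% of the genes were called at any fold, so that assumption is open to doubt. Each gene was given a two-sided quasi-likelihood test in edgeR, adjusted by Benjamini-Hochberg over all genes tested. The standard error is the size of the log2 fold change divided by the root of F. Pair ratios used a prior count of 0.5 and an exact permutation test. The fit was tested on simulated counts, where the limit first set on the share of small changes recovered was not met and was loosened after that outcome. The libraries held 7876402 to 11164840 counts, and floors cover counting error only. Alternatives to the scaling were RLE, upper quartile and plain library size, and alternatives to the filter were 10 counts or more in each library, or none. Further alternatives were DESeq2, the replicate number as a block, leaving out a library, and limma on log2 FPKM with pseudocounts of 1 and 0.1 or a mean FPKM of at least 1.

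The members and lists were chosen with earlier results of these data known. Values in every library are given for the highest and lowest member of each role group, members past 1.5, members not called or whose call changed, and both genes of each pair, and for the highest and lowest gene of each other sublist with INTS11, INTS13 and INTS14. The promoter motifs, the 30-base window and the sequences printed were chosen after the values were seen. Positions are from GENCODE 44 lifted to GRCh37, and promoters from RefSeq. The software was Python 3.11.15 with pandas 2.3.3, numpy 2.4.6, matplotlib 3.10.9 and scipy 1.17.1, and R 4.3.3 with limma 3.58.1, DESeq2 1.42.0 and edgeR 4.0.16.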

Additional observations from a re-analysis of the deposited data

How the results depend on the processing

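Of 34 members, 25 kept their direction and their call under every alternative, and CPSF6, CPSF7, CSTF1, CSTF2, CSTF2T, PAPOLA, INTS1, INTS4 and INTS12 did not. All 8 members past 1.5 on the log2 scale are among the 25. The members called were 14 higher and 14 lower with upper quartile factors, 11 and 21 with library sizes alone, 13 and 17 with RLE factors, 13 and 16 with DESeq2, 14 and 15 with the minimum of 10 counts per library, 11 and 20 with no filter, and 11 and 18 of 32 in the limma fits. The members' median log2 fold change of −0.25 was −0.18 with RLE factors, −0.055 with upper quartile factors, −0.50 with library sizes alone, −0.18 with DESeq2, −0.12 with at least 10 counts in every library, −0.33 with no filter, −0.34 with limma on log2(FPKM + 1), −0.35 with a pseudocount of 0.1 and −0.34 with a mean FPKM of at least 1, and these settings moved the median over all genes by 0.07, 0.19, −0.25, 0.07, 0.13, −0.09, −0.26, −0.31 and −0.26. With the fold threshold of 1.5 the counts were 4 higher and 4 lower, but CPSF2 fell short of it with upper quartile factors (−1.41) and with at least 10 counts in every library (−1.47), RBBP6 with library sizes alone (1.39) and limma on log2(FPKM + 1) (1.47), and INTS6 in the limma fits (1.14 to 1.28), while CPSF3 passed it with library sizes alone (−1.69), no filter (−1.53) and without THZ1 library 3 (−1.58), and INTS8 with library sizes alone (−1.57) and limma with a pseudocount of 0.1 (−1.57). Among small changes that kept their call, CPSF1 was 0.14 with library sizes alone, and XRN2, INTS3 and FIP1L1 ranged from −0.62, −0.64 and −0.72 with library sizes alone to −0.18, −0.20 and −0.28 with upper quartile factors. The sign turned for CPSF6 with upper quartile factors (0.071) and with at least 10 counts in every library (0.011), for CPSF7 (−0.044), INTS1 (−0.076) and PAPOLA (−0.22) with library sizes alone, and for PAPOLA with no filter (−0.061), in the 3 limma fits on FPKM (−0.064 and −0.064, and −0.065 with the pseudocount of 0.1) and without DMSO library 3 (−0.039) or THZ1 library 1 (−0.023). With a library left out, PAPOLA ranged from −0.039 to 0.047, and over all alternatives from −0.22 to 0.22. The change in the ratio of CSTF2 over CSTF2T ranged from −0.056 to 0.062 with a library left out, and was negative without DMSO library 1 (−0.014) and THZ1 library 3 (−0.056). With a library left out, the members called were 11 to 13 higher and 18 to 20 lower, and their median was −0.30 to −0.24. With the replicate number as a block, 13 members were higher and 18 lower, the median was −0.25, and no call of a member changed. Deviations of same-numbered libraries correlated at −0.004, 0.001 and 0.021, so no pairing by number was seen. The labels do not say whether same-numbered libraries shared a culture or a day, and these values cannot settle it. The cause of each of these shifts was not tested. The lowest count of any member in any library was 48, in INTS9, where depth limits the precision most.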
